A study of Mus musculus with 8 samples.

Results

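The genes described here are 10 markers of immature neurons of the adult brain: Dcx, Eomes, Neurod1, Sox11, Sox4, Igfbpl1, Draxin, Tubb3, Ncam1 and Dpysl3. They were taken by name from the gene-name column of the array files, which holds 34821 distinct names, and this gave 21 of the 55681 probes on the array. Testing required a scanner flag for signal well above background on 4 or more of the 8 arrays, which 15 of the 21 had. These 15 probes belong to 8 of the 10 genes, and no probe of Eomes or Draxin could be tested.

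The study measured hippocampal total RNA of female C57BL6/J mice of 8 weeks on single-colour Agilent arrays. All mice had lived for 4 weeks in an enriched environment, that is, in cages offering more stimulation than standard housing. The control group (n = 4) received a control antibody, and the anti-CD4 group (n = 4) an anti-CD4 antibody, directed at the co-receptor that marks helper T cells. The title of the series names CD4+ T cell depletion and its effect on hippocampal gene expression as the subject. The labels do not name the antibody clone, the dose or the number of animals behind a sample, so p-values measure no more than the spread of these 8 samples, part or all of which may be technical.

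New granule neurons are made throughout life in the subgranular zone of the dentate gyrus. Stem cells there give rise to dividing intermediate progenitors that carry Eomes (also called Tbr2) and then Neurod1, and these become migrating neuroblasts that carry doublecortin, the product of Dcx. Enriched housing is known to favour the survival of such cells in mice. In whole hippocampus they are a small minority, and Tubb3, Ncam1, Dpysl3 and Sox4 are also used by mature neurons or by glial precursors.

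None of the 8 genes that could be tested passed an adjusted p of 0.05 between the groups (limma, adjusted over 29406 tested probes). Of the 15 tested probes, 7 had a higher mean with anti-CD4 and 8 a lower one, with differences of -0.23 to 0.32 on the log2 scale. Their median difference was -0.02, against 0.0046 over all tested probes, and the median size of a difference was 0.12, against 0.11 over all tested probes. The smallest adjusted p among them was 0.340, for a probe of Dpysl3.

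The same held for the whole array. No probe of the array passed the adjusted threshold in limma (0% called, smallest adjusted p 0.148), and 3813 of 29406 (13%) had an unadjusted p under 0.05, 1758 higher (5.98%) and 2055 lower (6.99%). With each array centred on its median, 67.2% of such probes were higher, against 46.1% here. The groups did not overlap for 8.21% of tested probes, 3.77% higher and 4.43% lower. Among the markers, 1 of 15 probes had an unadjusted p under 0.05 and the same probe was the only one without overlap (6.67%), which is no more than the shares over the whole array.

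Per array, 51.1% to 54.3% of probes were clear of background by the scanner's flag and 0 were saturated. All 8 arrays lay on 1 slide with 1 scan, and the anti-CD4 arrays filled 1 row and the controls the other, so row and treatment cannot be told apart. All 8 hippocampal neuron genes examined, among them Neurod6, Wfs1, Zbtb20 and Camk2a, were well above background on all 8 arrays. Signal of Ttr, the main transcript of choroid plexus, differed far more within groups than between them, from -0.46 to 8.26 in controls and from 1.22 to 8.48 with anti-CD4. All values are log2 of the processed signal minus the 75th percentile of the array, so a value of 0 means a signal at that percentile. Levels of different probes are not compared, since probes differ in how strongly they bind.

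The probe sequences show which part of a transcript each reading comes from, and are given because probes of the same gene often disagreed here. Dcx had 3 probes, on the minus strand of chromosome X (mm9), and only the first listed was well above background on all arrays. Their first 30 bases read
Dcx A_52_P244349 (chrX:140290854-140290913): ataaaaagaaaagcaaaacagagatgtgcg
Dcx A_52_P506493 (chrX:140295893-140295952): tcccatgttgtcccaagtattcatttaaga
Dcx A_55_P2080126 (chrX:140296337-140296396): aactcaacatgaattgatgacaacttggtg
The files list the first and second under 1 reference transcript of Dcx and the third under another, and place their starts at bases 8435, 3396 and 3048 of those transcripts. The bright probe is thus the one farthest along its transcript.

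A further 3 probes hold AATAAA, the letters of the common polyadenylation signal, here in capitals within 30 bases of the probe. They were searched on the transcript strand in the 19 member probes outside Dpysl3, and 10.1% of all 55681 probes of 60 bases hold it. The probes of Tubb3 and Sox11 were well above background on all 8 arrays and that of Eomes on none.
Tubb3 A_55_P2041828 (chr8:125945850-125945909, plus strand), bases 23 to 52: aggggtatacttAATAAAgttactgctgtc
Sox11 A_55_P2094721 (chr12:28020087-28020146, minus strand), bases 30 to 59: gttcaaaagaccAATAAAaatcgtgtgatc
Eomes A_55_P2184434 (chr9:118395189-118395248, plus strand), bases 4 to 33: taagtcatttttAATAAAtgtggttcaata

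Another 3 probes are shown whole because they read the protein-coding part of the message. The Sox4 probe covers the end of the HMG box, the DNA-binding domain, that of Ncam1 part of the fibronectin type III repeats, and that of Neurod1 part of the protein beyond its helix-loop-helix domain. These positions are background knowledge of the proteins and were not looked up in an annotation.
Sox4 A_55_P2131899 (chr13:29044482-29044541, minus strand): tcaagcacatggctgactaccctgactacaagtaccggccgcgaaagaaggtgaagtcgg
Neurod1 A_55_P2004972 (chr2:79294309-79294368, minus strand): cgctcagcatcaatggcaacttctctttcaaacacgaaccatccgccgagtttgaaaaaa
Ncam1 A_55_P2028942 (chr9:49351182-49351241, minus strand): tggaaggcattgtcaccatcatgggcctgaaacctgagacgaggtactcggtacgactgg

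Eomes encodes the T-box factor of intermediate progenitors. Neither of its probes was well above background on any array. The probe A_55_P2150717 (chr9:118394425-118394484) read between -5.52 and -4.15 in controls and between -5.33 and -4.39 with anti-CD4. The probe A_55_P2184434 read -6.28 to -5.95 and -6.37 to -6.04. By the scanner's flag Eomes transcript was thus not detected on any array, and no difference is given. The lowest signal of any flagged probe lay between -5.17 and -4.11 on these arrays, a range that the readings of A_55_P2150717 overlapped and those of A_55_P2184434 did not reach. Eomes also serves natural killer and CD8 T cells. Of 11 genes of those cells, 6 were well above background on no array, among them Cd3g, Gzmb, Ncr1 and Klrb1c. The 4 that could be tested (median difference 0.03) were Cd3e, Nkg7 and Prf1, well above background on all 8 arrays, and Gzma, on 7.

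Draxin encodes a secreted axon guidance protein that binds the netrin receptor DCC. Its probes A_55_P1997676 (chr4:147476483-147476542) and A_51_P302488 (chr4:147475543-147475602) were not well above background on any array either. They read -6.30 to -5.92 and -6.42 to -6.02 in controls. In the anti-CD4 group they read -6.38 to -5.57 and -6.44 to -6.10.

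**Figure D1:**
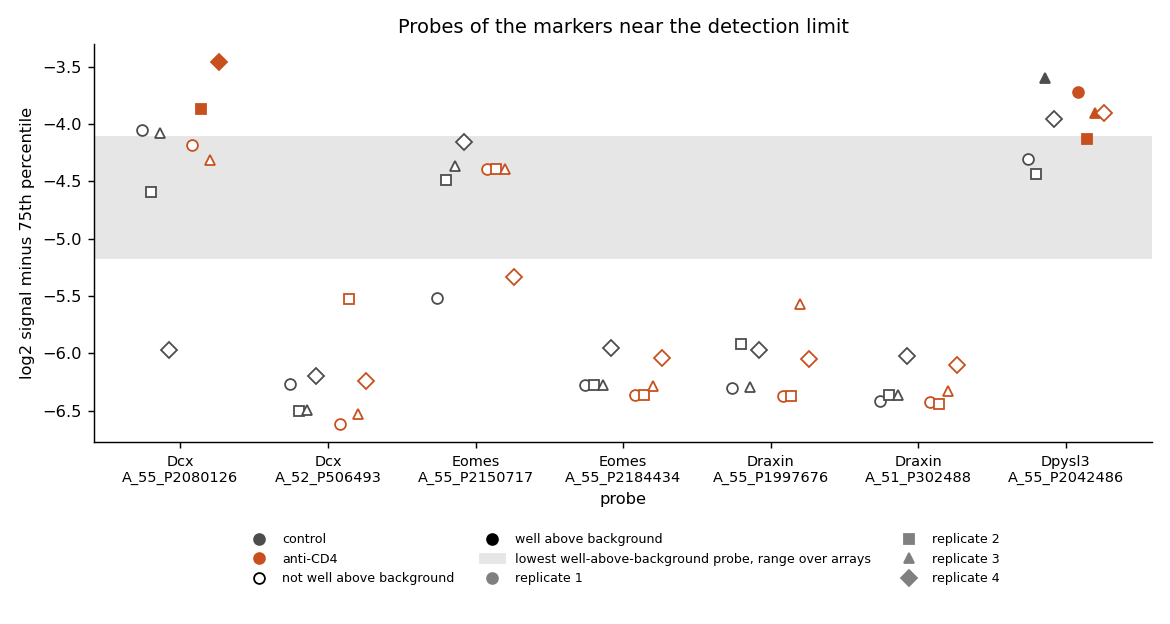
Log2 signal minus the array's 75th percentile (vertical axis) of the 7 marker probes that were well above background on 4 or fewer arrays, for 4 control (grey) and 4 anti-CD4 (orange) arrays, with filled symbols where the scanner software called the spot well above background and a grey band for the range over arrays of the lowest such probe. Both probes of Eomes and of Draxin are open on all arrays, a Dcx probe is filled on 2 anti-CD4 arrays, and a Dpysl3 probe on 4 arrays.

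Neurod1 encodes a basic helix-loop-helix factor needed for the survival of new granule neurons and kept by mature ones. The coding probe A_55_P2004972 read -0.89, -0.71, -0.92 and -0.88 in control replicates 1 to 4, against -1.02, -0.96, -0.77 and -0.96 in the same order with anti-CD4. The value of anti-CD4 replicate 3 fell among the controls and the other anti-CD4 values just below them. The difference was -0.08 (95% confidence interval -0.26 to 0.10; adjusted p = 0.699, limma).

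The other Neurod1 probe, A_52_P408391 (chr2:79293621-79293680), read -1.20, -0.80, -1.04 and -1.20 in controls and -1.25, -1.29, -1.03 and -1.28 with anti-CD4, a difference of -0.16 (-0.40 to 0.09; adjusted p = 0.559, limma). Anti-CD4 replicate 3 was again the highest of its group and control replicate 2 the highest of all. Without anti-CD4 replicate 3 the groups did not overlap for either probe, with differences of -0.13 and -0.22, and neither passed the threshold (adjusted p = 0.444 and 0.377, limma). In that setting 16.5% of all tested probes did not overlap. Without control replicate 2 the differences were -0.03 and -0.07.

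Dcx encodes the microtubule-binding protein by which neuroblasts are usually counted. Its bright probe read 0.52, 0.29, 0.20 and 0.07 in control replicates 1 to 4, against 0.30, 0.71, 0.10 and 0.35 in the same order with anti-CD4. The highest array of each group stood apart from an otherwise shared range, and the groups overlapped throughout. The mean was 0.27 ± 0.19 in controls and 0.37 ± 0.25 with anti-CD4 (SD, n = 4), a difference of 0.09 (-0.23 to 0.42; adjusted p = 0.802, limma). On the linear scale this interval runs from 0.853-fold to 1.34-fold.

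The sign of the Dcx difference rested on anti-CD4 replicate 2, without which it was -0.02. Of the other Dcx probes, A_52_P506493 was well above background on no array. The probe A_55_P2080126 was well above background on anti-CD4 replicates 2 and 4 and on no control array. It read -4.06, -4.59, -4.08 and -5.97 in controls and -4.18, -3.87, -4.32 and -3.46 with anti-CD4. Since only 2 of the 4 anti-CD4 arrays measured this probe, it was not tested and no fold is given.

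Sox11 and Sox4 are SoxC transcription factors that switch on neuronal genes, among them Dcx and Tubb3, in newly formed neurons. Sox11 was read by 2 probes. The probe A_55_P2094721 read -0.0047, 0.33, 0.07 and 0.17 in controls and 0.04, -0.14, 0.25 and -0.14 with anti-CD4, a difference of -0.14 (-0.39 to 0.11; adjusted p = 0.610, limma). Anti-CD4 replicates 2 and 4 lay below all controls and the other anti-CD4 arrays within their range.

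The second Sox11 probe, A_52_P160955 (chr12:28019541-28019600), also had its lowest anti-CD4 arrays in replicates 2 and 4. It read -0.17, 0.0038, -0.26 and -0.02 in controls and -0.01, -0.27, 0.05 and -0.30 with anti-CD4. The difference was -0.02 (-0.26 to 0.22; adjusted p = 0.957, limma), and its sign turned with normexp background correction (0.05), centring on the median (0.02) and the authors' deposited table (0.06).

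Sox4 was read by 3 probes that did not share a direction. The probe A_55_P2121608 (chr13:29040826-29040885), read 1.71 ± 0.13 in controls and 1.82 ± 0.17 with anti-CD4 (SD, n = 4), a difference of 0.11 (-0.12 to 0.34; adjusted p = 0.652, limma). The probe A_55_P2121613 (chr13:29042856-29042915) differed by -0.07 (-0.28 to 0.14). The coding probe read -2.43, -2.58, -3.04 and -2.33 in controls and -2.52, -2.27, -1.63 and -2.79 with anti-CD4. Its difference of 0.29 had an interval of -0.28 to 0.86, and the highest value was that of anti-CD4 replicate 3. Without that array the difference was 0.07.

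Igfbpl1 encodes an insulin-like growth factor binding protein-like protein that marks early granule neuroblasts. Its probe (chr4:45822379-45822438) read -1.31, -0.85, -1.93 and -1.87 in controls and -1.39, -1.96, -1.56 and -1.97 with anti-CD4. Control replicates 1 and 2 were high, control replicates 3 and 4 were close to the lowest anti-CD4 arrays, and the spread within controls exceeded the difference of -0.23 (-0.80 to 0.35; adjusted p = 0.724, limma). Leaving out control replicate 2 gave -0.01, and leaving out control replicate 3 gave -0.37.

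Tubb3 encodes class III beta-tubulin, a microtubule protein of young and adult neurons. It had the largest difference of the 15 probes. It read 3.87, 3.53, 4.15 and 4.22 in controls and 4.31, 4.45, 3.90 and 4.39 with anti-CD4. The anti-CD4 arrays other than replicate 3 lay above all controls, and replicate 3 lay inside the control range. The mean was 3.94 ± 0.32 in controls and 4.26 ± 0.25 with anti-CD4 (SD, n = 4), a 1.25-fold difference with an interval of 0.947-fold to 1.65-fold (log2 difference 0.32, adjusted p = 0.470, limma). Without anti-CD4 replicate 3 the groups did not overlap, as for 16.5% of all tested probes in that setting, and the difference was 0.44 (adjusted p = 0.266, limma). Without control replicate 2, the lowest control, it was 0.18.

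Ncam1 encodes a cell adhesion molecule whose polysialylated form, PSA-NCAM, is carried by migrating neuroblasts. The array reads the message and not this modification. Its 3 probes differed by 0.07 (A_51_P380309, chr9:49310320-49310379), -0.03 (A_55_P2050602, chr9:49323381-49323440) and 0.12 (the coding probe), with intervals within -0.18 to 0.28 (adjusted p = 0.775, 0.875 and 0.507, limma). The coding probe read 1.58 to 1.69 in controls and 1.66 to 1.90 with anti-CD4.

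Of the 2 enzymes that add polysialic acid, St8sia2 was well above background on no array. St8sia4 read 1.43 ± 0.08 in controls and 1.56 ± 0.05 with anti-CD4 (SD, n = 4), with no overlap between groups and a difference of 0.13 (adjusted p = 0.430, limma).

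Dpysl3 encodes a collapsin response mediator protein of growing axons, also known as CRMP4 or TUC-4. It gave the only marker probe whose groups did not overlap. The probe A_55_P2042487 (chr18:43483948-43484007) read 3.45, 3.58, 3.48 and 3.42 in controls and 3.31, 3.40, 3.23 and 3.31 with anti-CD4. The highest anti-CD4 array was 3.40 and the lowest control 3.42, so the gap between groups was small. The difference was -0.17 (-0.32 to -0.02), 0.889-fold on the linear scale, with an unadjusted p of 0.0305 and an adjusted p of 0.340 (limma).

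The other Dpysl3 probe, A_55_P2042486 (chr18:43483881-43483940), pointed the other way. Of the controls 1 array was well above background for it and of the anti-CD4 arrays 3, the group where it was higher. It read -4.43 to -3.59 in controls and -4.13 to -3.72 with anti-CD4. These readings lay close to the lowest signal of any flagged probe (-5.17 to -4.11), so its direction carries little weight. The difference was 0.16 (-0.25 to 0.57, adjusted p = 0.733, limma). The mean of both probes, which gives this dim probe the same weight as the bright one, differed by -0.0058. With the authors' deposited table neither probe's groups overlapped, as for 10.1% of all tested probes in that setting. The differences there were -0.22 for A_55_P2042487 and 0.20 for A_55_P2042486 (adjusted p = 0.157 and 0.179, limma). With median centring and with normexp the groups of A_55_P2042487 overlapped.

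**Figure D2:**
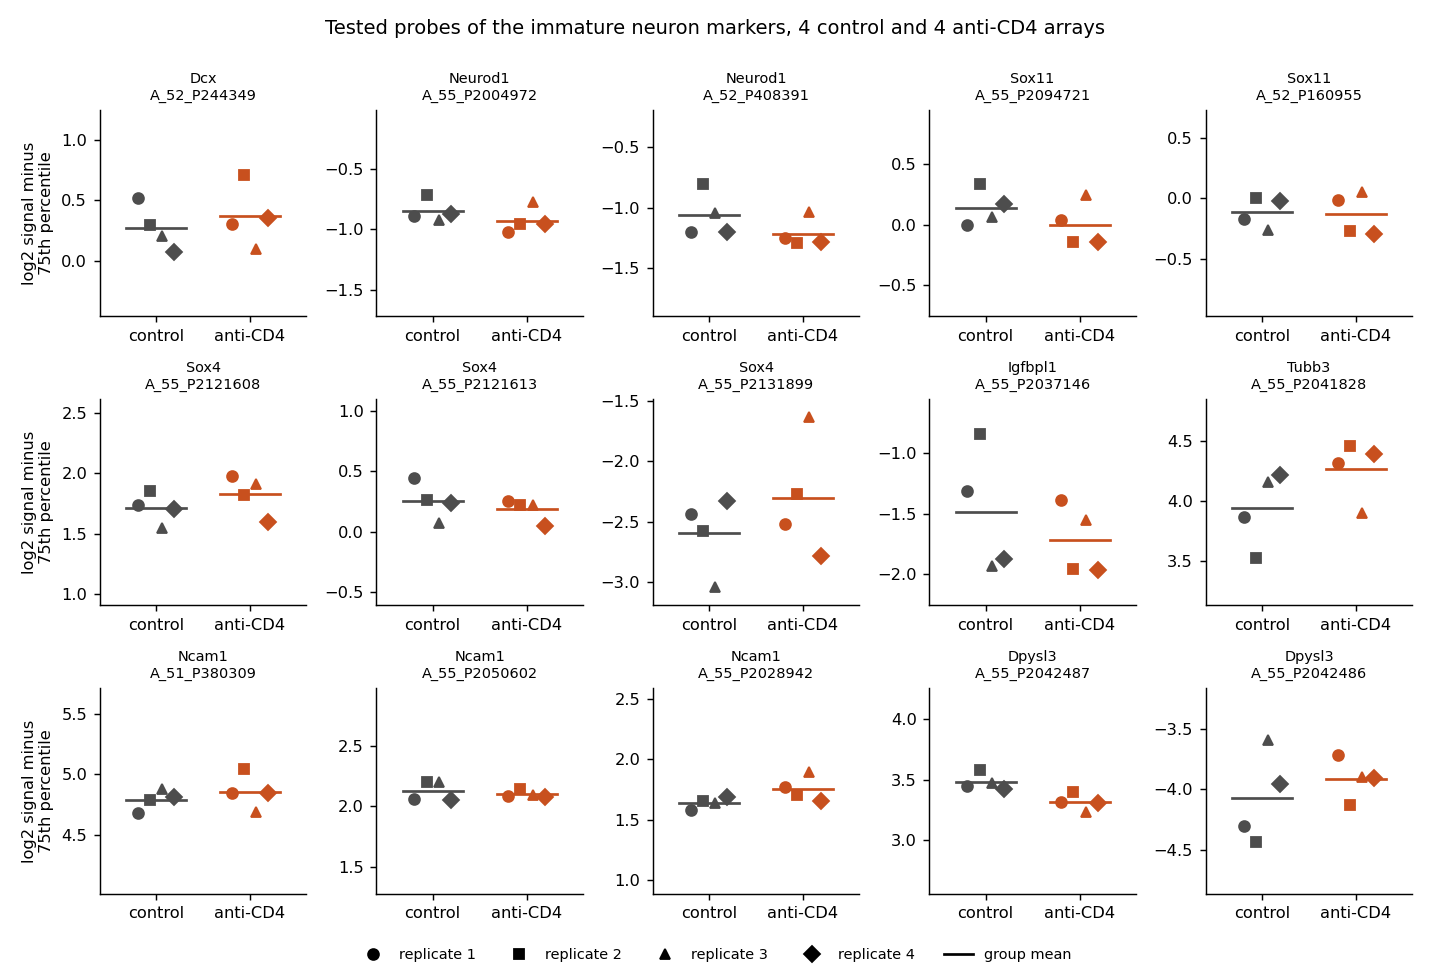
Log2 signal minus the array's 75th percentile (vertical axis, the same span of 1.7 in each panel) for the 15 tested probes, with 4 control (grey) and 4 anti-CD4 (orange) arrays by replicate symbol and horizontal lines at group means. Only Dpysl3 A_55_P2042487 has groups that do not overlap, and for Tubb3 anti-CD4 replicate 3 (triangle) is the single anti-CD4 array inside the control range.

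**Figure D3:**
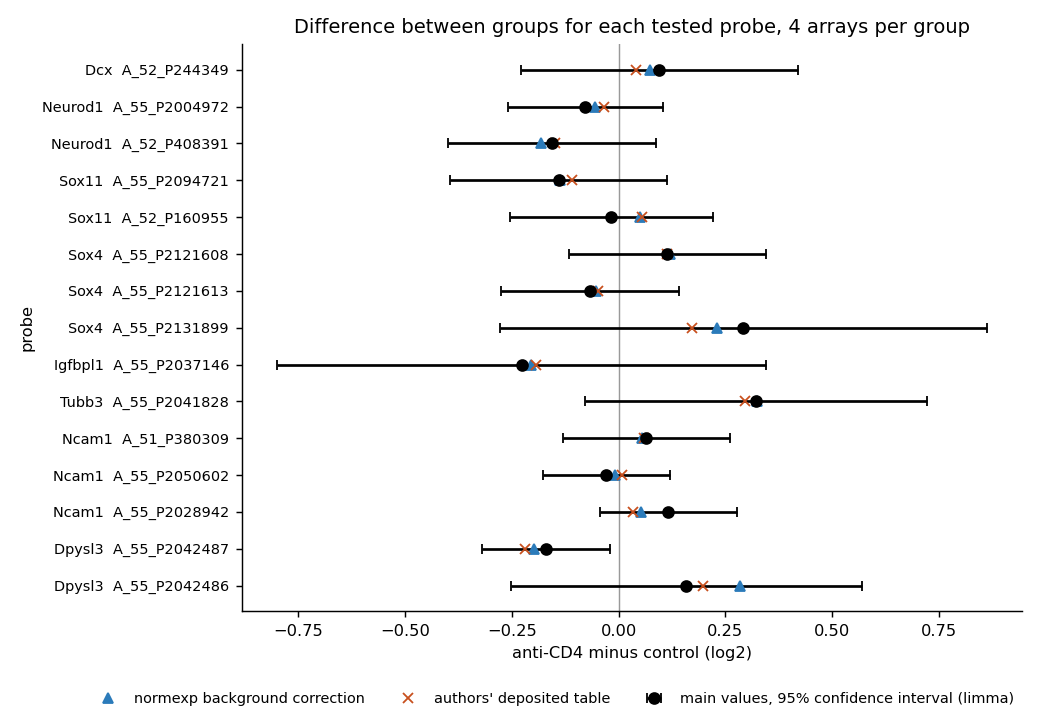
Difference between groups (anti-CD4 minus control, log2) for each of the 15 tested probes, with limma's 95% confidence interval (black), and the difference after normexp background correction (triangles) and in the authors' deposited table (crosses). All intervals but that of Dpysl3 A_55_P2042487 include 0, and 11 of 15 lie within 0.5 of 0 on both sides.

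For 11 of the 15 probes the 95% interval lay within 0.5 on the log2 scale in both directions, as it did for 73.9% of all tested probes. The other probes, of Sox4 (coding), Igfbpl1, Tubb3 and Dpysl3 (A_55_P2042486), left wider limits of up to -0.80 and 0.86. Of the 5 genes with 2 or 3 tested probes, 3 had probes on both sides of 0, Dpysl3 only through its dim probe. In this bulk tissue, fewer immature neurons and less RNA per cell cannot be told apart.

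Members did not share 1 order of arrays. Several followed, in opposite directions, the mean of 17 measured genes of mature dentate granule neurons, which varied within both groups. This mean was -0.07, 0.31, 0.12 and -0.03 in controls and 0.11, -0.33, 0.08 and -0.19 with anti-CD4, after each gene was centred on its own mean. It was thus highest in control replicate 2 and lowest in anti-CD4 replicates 2 and 4. The centred mean of the 8 hippocampal neuron genes, which share Prox1 with the dentate list, ran much the same way. It was -0.09, 0.37, 0.19 and 0.09 in controls and 0.03, -0.43, 0.14 and -0.30 with anti-CD4. The relations below can therefore not be assigned to dentate granule neurons alone.

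Sox11 (A_55_P2094721) followed the dentate mean most closely over the 8 arrays. Its Pearson r was 0.85 (exact permutation p = 0.00764, 0.0611 adjusted over 8 genes) and its Spearman rho 0.79 (exact permutation p = 0.0279, 0.223 adjusted). The r was 0.65 without anti-CD4 replicate 2 and control replicate 2, the 2 arrays farthest from the median, and 0.82 for deviations from the group means. Igfbpl1 followed it with an r of 0.70 (exact permutation p = 0.0545, adjusted 0.145) and a rho of 0.60 (p = 0.132, adjusted 0.302), which became 0.25 without those 2 arrays.

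Tubb3 and Dcx ran the other way. For Tubb3 the r was -0.73 (exact permutation p = 0.0385, adjusted 0.145) and the rho -0.64 (p = 0.0962, adjusted 0.302), and for Dcx the r was -0.63 (exact permutation p = 0.0945, adjusted 0.189) and the rho -0.57 (p = 0.151, adjusted 0.302). Without the same 2 arrays these became -0.22 and -0.46, so the relations of Tubb3 and of Igfbpl1 rested on those arrays. No relation passed the adjusted threshold. The other 4 genes, each by 1 probe, had r values of 0.57 (Neurod1), 0.26 (Sox4), -0.50 (Ncam1) and 0.36 (Dpysl3), with exact permutation p of 0.138 or more and adjusted p of 0.220 or more; their rho values were 0.40, 0.21, -0.14 and 0.48. Without the same 2 arrays their r values were 0.09, 0.44, 0.10 and -0.0014.

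Further probes of a gene, for which r is given without a test, did not always follow the first. The second probe of Neurod1 had an r of 0.83 and that of Sox11 0.66, the same sign as the first. The other Ncam1 probes had r values of 0.41 (A_55_P2050602) and 0.14 (A_55_P2028942), opposite in sign to -0.50, and the -0.50 itself became 0.05 without anti-CD4 replicate 2. The second Dpysl3 probe had an r of -0.0056, and the r of the first became -0.10 without control replicate 2. The other Sox4 probes had r values of 0.10 and -0.08.

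With the dentate mean as a covariate, the differences of Sox11 (A_55_P2094721), Tubb3 and Igfbpl1 became -0.02, 0.16 and 0.0057, and that of Dcx -0.02. Those of Neurod1 became -0.04 and -0.05, and those of Ncam1 A_51_P380309 and A_55_P2050602 0.02 and -0.0089. Others grew, to 0.18 (Sox4 A_55_P2121608), 0.33 (coding Sox4), 0.16 (coding Ncam1) and 0.19 (Dpysl3 A_55_P2042486). Sox4 A_55_P2121613 stayed at -0.07, and the second Sox11 probe became 0.07. Of the 17 dentate genes 13 were lower with anti-CD4, so this covariate can also take up a group difference. The difference of Dpysl3 A_55_P2042487 stayed at -0.17 (adjusted p = 0.463, limma). Ttr signal split the arrays into 5 at 7.60 or above and 3 at 2.72 or below, so no correlation with it is given.

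**Figure D4:**
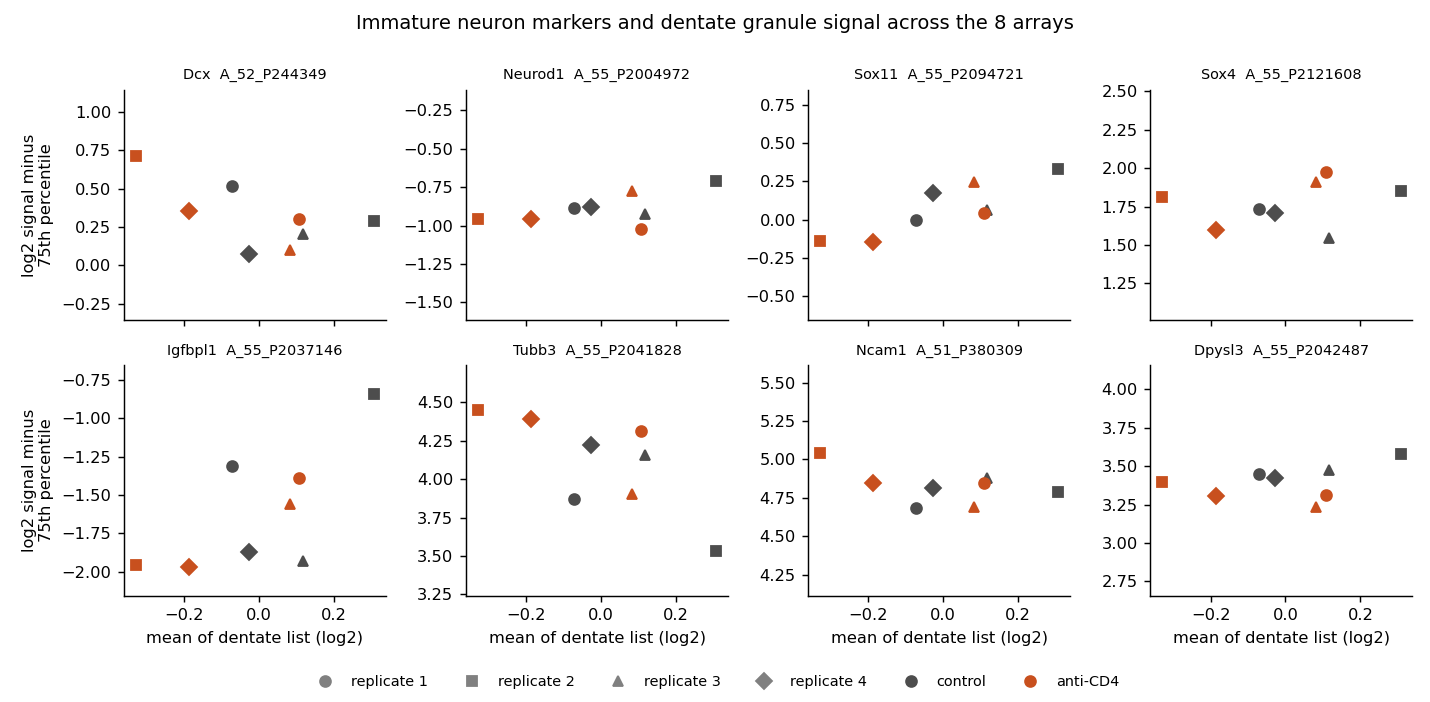
Log2 signal minus the array's 75th percentile (vertical axes) of 1 probe for each of 8 marker genes against the mean of 17 dentate granule neuron genes (horizontal axis, log2, genes centred) in the 4 control (grey) and 4 anti-CD4 (orange) arrays. Sox11 is higher where the dentate mean is higher (r = 0.85), and Tubb3 and Dcx are lower there (r = -0.73 and -0.63).

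The named genes most like the bright Dcx probe over the 8 arrays, of 14189 ranked, were Ndufa4l2 (Pearson r = 0.98), Ncaph (0.97), Syce1 (0.95), Slc16a11 (0.94) and Drd1 (0.94). They were chosen for their likeness, so no test is given. Drd1, the dopamine D1 receptor gene abundant in striatum, read -1.57, -1.80, -1.72 and -1.94 in controls and -1.58, -1.13, -1.93 and -1.56 with anti-CD4, highest like Dcx in anti-CD4 replicate 2. The mean of 4 measured striatum genes (of 6) was 0.40 on that array and between -0.24 and 0.15 on the others. Drd1 is 1 of these 4 genes, so their mean is not independent of it. Drd2 was well above background on no array, and the part of striatal tissue in the Dcx values was not tested. The nearest of the other 7 measured markers was Ncam1 at rank 1541 (r = 0.50), and Sox11 lay near the other end (r = -0.69).

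Other genes of immature neurons and of the markers' families were read in the same way. Of 20 further genes of immature neurons, 19 were measured, 7 higher and 12 lower, with a median difference of -0.03. In limma none passed the adjusted threshold and 1 had an unadjusted p under 0.05, against 13% of all tested probes. That gene was Neurod6, a factor of pyramidal neurons, at -0.50 with no overlap (adjusted p = 0.244, limma). Stmn1, a microtubule-destabilising protein of neuroblasts, differed by 0.35 and the growth cone gene Gap43 by 0.39 (adjusted p = 0.395 and 0.420, limma). Both had their lowest anti-CD4 value in replicate 3, as Tubb3 did. Calb2, which encodes calretinin of young granule neurons, differed by 0.21 (adjusted p = 0.637, limma).

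Among 19 relatives and partners of the markers 18 were tested, 12 higher and 6 lower, with a median of 0.06. They share Neurod2 and Neurog2 with the further immature neuron genes. None passed the adjusted threshold in limma and 2 had an unadjusted p under 0.05, against 13% of all tested probes. Dclk2, a doublecortin-like kinase, differed by -0.21 without overlap and the third SoxC gene, Sox12, by -0.25 (adjusted p = 0.298 and 0.333, limma). The doublecortin-like kinase gene Dclk1 and Crmp1, a relative of Dpysl3, differed by 0.05 and 0.02. Dcc, the Draxin receptor, differed by -0.17 (adjusted p = 0.442, limma).

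The stages before and after the immature neuron were read by 3 further lists. Of 18 stem and early progenitor genes 13 were higher and 5 lower (median 0.11), against 51.1% of all tested probes higher. None passed the adjusted threshold in limma and 1 had an unadjusted p under 0.05, against 13% of all tested probes. Sox2, a stem cell factor, differed by -0.10 and Pax6, a factor of radial glia-like stem cells, by 0.26 (adjusted p = 0.591 and 0.362, limma). Of 12 cycling genes 9 were tested, 4 higher and 5 lower (median -0.07, none past the adjusted threshold, 3 lower with an unadjusted p under 0.05, limma), against 6.99% of all tested probes lower at that p. These were Mki67, which marks dividing cells, at -0.54, the cyclin gene Ccna2 at -0.43 and Ube2c, which acts in mitotic exit, at -0.69 (adjusted p = 0.259, 0.244 and 0.250, limma). Among the cycling genes not tested, Top2a and Cenpf were well above background on no array and Cdk1 on 1. The groups did not overlap for Mki67 and Ccna2, 2 of the 9 tested, against 8.21% of all tested probes (4.43% lower). The mean of the 9 genes, each centred, was 0.07 to 0.18 in controls and -0.23 to -0.03 with anti-CD4. Their median difference was 0.0058 with normexp background correction. The 17 measured dentate granule genes were 4 higher and 13 lower (median -0.20), against 51.1% of all tested probes higher. In limma none passed the adjusted threshold. At an unadjusted p under 0.05, 2 were higher and 3 lower (limma), against 5.98% and 6.99% of all tested probes. Prox1 differed by -0.52 and Calb1 by 0.43 (adjusted p = 0.373 and 0.308, limma). Without control replicate 2 the median of the dentate genes was -0.06.

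Lists for tissue composition differed between the arrays along with these genes, and their part in the values of the markers was not tested. Of the 8 hippocampal neuron genes, 7 were lower (median -0.33). These 8 share Prox1 with the dentate list, and Neurod6 and Bhlhe22 with the further immature neuron genes. All 5 measured thalamus and habenula genes of 6 were higher (median 0.21), and their centred mean was -0.25 to -0.0025 in controls and 0.05 to 0.24 with anti-CD4. Of the 4 measured striatum genes 3 were higher (median 0.25). In limma no gene of these 3 lists passed the adjusted threshold. An unadjusted p under 0.05 was found for 3 of 8, 1 of 5 and 1 of 4, against 13% of all tested probes.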

How the data were processed

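Per the file headers, the deposited spot intensity of each array comes from Agilent's Feature Extraction 10.7.3.1 (design 028005), which detrended the signal spatially and multiplicatively. The authors also deposited 1 table of log2 values, which follow each array's median spot signal closely and have nearly equal medians; how else it was made is not given in the sources used here. The flags for signal well above background are those of the deposited files. Control spots and outlier spots were left out, and spots of a probe were averaged as log2. Values are log2 of the processed signal minus the 75th percentile of the array. The 2 groups were fitted per probe in R 4.3.3 using limma 3.58.1 (lmFit, then eBayes), with two-sided p-values adjusted by Benjamini-Hochberg over 29406 probes; the code was tested on simulated data. Each probe was kept apart. Probes were named by the files; genes of other lists were matched by GRCm38.p6 symbols. Coordinates are those of the files (mm9). Confidence intervals are limma's at 95%. The number of arrays limits the precision. Correlations used exact two-sided permutation over all pairings. The rule named every marker probe, up to 4 genes of each other list with the smallest unadjusted p, some genes fixed by name (among them Prox1, Calb1, Calb2, Mki67, Sox2, Stmn1, St8sia2, St8sia4, Dclk1, Sox12, Crmp1 and Ttr) and the 5 genes most like Dcx; genes named only for their detection were chosen after their values were seen. All 6 oligodendrocyte precursor genes were named, beyond that rule. Markers and lists were chosen with earlier results of these data known. Alternatives covered scaling, background, filter, probe choice, replicate block, empirical Bayes options, array weights, 2 covariates, the authors' table and each array left out. The values of 1 gene fixed by name are not reported here.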

Additional observations from a re-analysis of the deposited data

Results flagged for a closer look

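Dixon's gap test was run on both groups of each of the 15 tested probes. It set 1 array apart in 2 of these 30 sets (6.67%); about 1 in 20 is the chance rate. Neurod1 probe A_52_P408391 read -1.034 in anti-CD4 replicate 3, while the rest of its group lay between -1.29 and -1.25, and was inside the control range. Sox4 probe A_55_P2121613 read 0.04479 in anti-CD4 replicate 4, where the rest of the group lay between 0.22 and 0.25; control replicate 3 read 0.07. No cause was tested for either.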

How the results depend on the processing

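No marker probe passed the threshold under any of the 21 alternative settings (smallest adjusted p among them 0.157 to 0.709 by setting, limma). Replicate numbers are slide columns; deviations of same-numbered arrays correlated at -0.44, -0.28, -0.31 and 0.28, so the numbers were not taken to pair samples. With the replicate block, 0 probes of the array passed and 2763 had an unadjusted p under 0.05, against 3813 without it. Over the whole array 2 probes passed with the trend and robust options, 2 with the authors' table, 1 with the Ttr covariate and 0 to 2 with an array left out, 2 of them without anti-CD4 replicate 3. The number of marker probes whose groups did not overlap was 0 with median centring, with normexp and with the mean of a gene's probes. In these settings 8.18%, 8.96% and 7.75% of all tested probes or genes did not overlap. With the authors' table the number was 2, and 10.1% of all tested probes did not overlap. It was 1 to 4 with an array left out. Without control replicate 4 or anti-CD4 replicate 4 it was 2, as the coding Ncam1 probe joined. In these settings 13.1% and 10.8% of all tested probes did not overlap. It was 4 without anti-CD4 replicate 3, where Tubb3 and both Neurod1 probes joined and 16.5% of all tested probes did not overlap. The sign of a difference turned in 13 of 297 recomputed values, and 11 of 15 probes kept theirs in all settings. For Sox11 A_52_P160955 it was 0.0165 with median centring, 0.0493 with normexp, 0.0558 with the authors' table, 0.0735 with the dentate covariate and -0.0782 to 0.0376 with an array left out. For Ncam1 A_55_P2050602 it was 0.0053 with median centring and 0.0073 with the authors' table. With the dentate covariate Dcx was -0.0181 and Igfbpl1 0.0057. With an array left out Dcx was -0.0196 to 0.18, the lowest without anti-CD4 replicate 2. The correlation of Sox11 with the dentate mean was 0.76 to 0.89 with an array left out, and other scalings, added after seeing the data, kept its sign. The causes were not tested.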

Other observations

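Genes of other cells that share some of the markers were also read. Neuroblasts of the ventricular zone and olfactory system, which carry Dcx as well, are marked by Dlx and Sp factors. Of 6 such genes 5 were measured, and all 5 were higher in the anti-CD4 group (median 0.17). In limma none passed the adjusted threshold and 1 had an unadjusted p under 0.05, against 13% of all tested probes. The median was 0.05 with the authors' table and 0.06 without control replicate 1. Striatum genes, from a region whose neurons also come from Dlx-expressing precursors, were higher in 3 of 4 (median 0.25). The gene with the unadjusted p under 0.05, Dlx2, read -0.48 ± 0.18 in controls and -0.13 ± 0.25 with anti-CD4 (SD, n = 4), a difference of 0.36 (adjusted p = 0.345, limma). It was highest in anti-CD4 replicate 2 at 0.15, the array that was also highest for Dcx, and lay inside the control range in anti-CD4 replicate 3 at -0.46. Dlx1, Dlx2 and Dlx5 are also used by interneurons.

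Oligodendrocyte precursors carry Sox4, Sox11 and Dpysl3 too. Their 6 genes were 3 higher and 3 lower (median -0.01). In limma none passed the adjusted threshold and 2, both lower, had an unadjusted p under 0.05, against 13% of all tested probes (6.99% lower). Those 2 were Olig1 and Sox10. Gpr17 differed by 0.10 and Olig2 by -0.09 (adjusted p = 0.685 and 0.763, limma). Pdgfra and Cspg4, which mark the precursor stage, differed by 0.06 and 0.11 (adjusted p = 0.788 and 0.678, limma), while Olig1 and Sox10, which persist in mature oligodendrocytes, differed by -0.33 and -0.25 (adjusted p = 0.276 and 0.364, limma). Of 5 Cajal-Retzius genes 3 were measured, 2 higher and 1 lower (median 0.14), with Lhx1 and Lhx5 well above background on no array. Reln, also used by interneurons, differed by 0.42, Trp73 by 0.14 and Ndnf by -0.22 (adjusted p = 0.331, 0.559 and 0.573, limma).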
